A study of Mus musculus with 9 samples.

Results

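Acod1, Nos2, Arg1, Arg2 and Slc7a2, genes of itaconate and arginine metabolism, were followed across all samples. They were chosen by name, and all probe sets that the platform annotation assigns to them were used. This gave 8 probe sets of 22690 on the array, for 5 of 12394 genes. Nos2, Arg1 and Acod1 had 1 probe set each, Arg2 had 2 and Slc7a2 had 3. Each of the 5 genes reached a log2 value of 6 on at least 1 array, which was the limit for testing and was met by 10032 genes. Of the 8 probe sets, 6 reached it. For a gene with several probe sets, the one with the highest average signal stands for it.

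Acod1, formerly Irg1, encodes the mitochondrial enzyme that makes itaconate from cis-aconitate, an intermediate of the tricarboxylic acid (TCA) cycle. Itaconate inhibits succinate dehydrogenase and accumulates in macrophages activated through Toll-like receptors. Arginine enters macrophages through cationic amino acid transporters such as the product of Slc7a2. Inside the cell it is used by inducible nitric oxide synthase (Nos2), which makes nitric oxide and citrulline, or by the arginases Arg1 (cytosolic) and Arg2 (mitochondrial), which make ornithine and urea. High Nos2 is a textbook feature of classically activated macrophages, and high Arg1 one of macrophages that respond to interleukin 4.

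The cells were macrophages that thioglycollate, an irritant, had drawn into the peritoneal cavity of mice. The mice were wild-type, MyD88 KO or TRIF KO, and MyD88 and TRIF are the adaptor proteins through which Toll-like receptor 4 signals when it meets lipopolysaccharide (LPS). Cells of each genotype were left unstimulated (0 h) or stimulated with LPS at 100 ng/ml for 1 h or 4 h, with 1 array for each of the 9 groups. The sources used here do not give the age or background strain of the mice, or say if separate mice were used for the arrays of a genotype. The values are log2 signals made with RMA, so that a difference of 1 is 2-fold. No group had a replicate, so precision is limited by how few arrays there are.

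A comparison of 2 arrays therefore has no test. A limma fit of genotype and time to all 9 arrays gave tests of each time across the 3 genotypes, and of each knockout across the 3 times. Its p-values weigh only how these arrays scatter, and part of that scatter may be technical. Also, a genotype cannot be told apart from the cell preparation it came from. Of 10 macrophage markers, Adgre1, Cd68, Csf1r and Lyz2 read between 11.88 and 14.53 on all arrays. Not all of the 10 were as high, with Mertk at 8.06 in wild type at 4 h and Marco at 8.25 in unstimulated MyD88 KO. The mean over the 10 lay between 11.54 and 11.80. It hides changes in both directions. At 4 h limma called Cd14 (0.70) and Marco (0.43) higher and Mertk (-0.89) and Fcgr1 (-0.75) lower. Over all genes, 4.62% were called higher and 7.13% lower. Myd88 itself read 9.30, 9.19 and 9.34 in MyD88 KO at 0, 1 and 4 h and at least 9.54 on all arrays of the other genotypes, with an average difference of -0.44 ± 0.0794 (SE; limma, Benjamini-Hochberg adjusted p = 0.00487). Nothing says if its probe set covers the deleted part, and TRIF KO could not be checked because Ticam1, which encodes TRIF, was not measured by itself.

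Acod1 had the largest response of the 5 genes, and its start region is shown for that reason. The sequence is the 250 bases before the RefSeq start site, on the plus strand of chr14:103046762-103047011 in GRCm38.p6, and its capitals mark a TATA box. Acod1 was the 1 of the 5 genes matched in the RefSeq promoter table.
Acod1 upstream: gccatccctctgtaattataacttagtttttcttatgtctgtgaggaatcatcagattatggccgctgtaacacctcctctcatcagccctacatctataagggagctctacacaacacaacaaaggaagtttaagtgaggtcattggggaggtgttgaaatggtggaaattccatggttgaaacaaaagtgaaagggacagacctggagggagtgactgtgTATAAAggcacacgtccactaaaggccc
The TATA box (TATAAA) began at position -28 from the start site, and 12.4% of 32851 RefSeq promoter windows of the same length held one on either strand. The window was also searched on both strands for the kB consensus, the GAS element (TTCNNNGAA), AP-1 (TGANTCA) and C/EBP (TTGCNNAA). None of these 4 motifs occurred in it, and nothing is drawn from that about the factors. They were found in 7.3%, 7.0%, 6.7% and 9.6% of all windows, in the same order.

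Acod1 rose in every genotype, and it did so from a lower starting level in both knockouts. In wild type it read 9.31, 10.64 and 13.04 (log2) at 0, 1 and 4 h. In MyD88 KO it read 7.79, 9.05 and 12.21, and in TRIF KO 8.81, 9.50 and 11.69. The 3 arrays at 4 h were the highest of all 9, and within each time the wild-type array was the highest.

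At 4 h Acod1 was 13.3-fold, 21.3-fold and 7.34-fold above the unstimulated level in wild type, MyD88 KO and TRIF KO. On the log2 scale these differences were 3.73, 4.41 and 2.88. Among the 10032 genes tested, that in MyD88 KO was the highest of all, that in TRIF KO ranked 2 from the top and that in wild type ranked 3. Across the genotypes Acod1 rose by 3.67 ± 0.196 at 4 h (SE; limma, Benjamini-Hochberg adjusted p = 3.12e-07, with the same sign in 3 of 3 genotypes).

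The early response of Acod1 was smaller, with 1 h differences of 1.33, 1.26 and 0.69 in the same order of genotypes. Across the genotypes it rose by 1.09 ± 0.196 at 1 h (SE; limma, Benjamini-Hochberg adjusted p = 0.0395, with the same sign in 3 of 3 genotypes). That call passed in 8 of 19 other fits, whose limma adjusted p ran from 0.000158 to 0.999. It did not pass without the wild-type array at 0 h (adjusted p = 0.255 by limma) or 1 h (0.732). The same held without the MyD88 KO array at 0 h (adjusted p = 0.264 by limma) or 1 h (0.067), or the TRIF KO array at 1 h (0.315). Between 1 h and 4 h Acod1 gained a further 2.40, 3.16 and 2.19 in wild type, MyD88 KO and TRIF KO.

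The level of Acod1 in MyD88 KO stood at -1.52, -1.59 and -0.84 against wild type at 0, 1 and 4 h, so the gap was narrowest at 4 h. In TRIF KO the differences were -0.50, -1.14 and -1.36, with the narrowest gap before LPS. Over the times Acod1 was lower in MyD88 KO, at -1.32 ± 0.196 (SE; limma, Benjamini-Hochberg adjusted p = 0.00156, with the same sign at 3 of 3 times). For TRIF KO the difference was -1.0 ± 0.196 (SE; limma, Benjamini-Hochberg adjusted p = 0.0222, with the same sign at 3 of 3 times).

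The call for TRIF KO was lost without the wild-type array at 1 h or 4 h (limma adjusted p = 0.204 and 0.0576) or the TRIF KO array at 1 h or 4 h (0.146 and 0.101). It passed in 10 of 19 other fits, with adjusted p from 0.000211 to 0.892 by limma. The call for MyD88 KO passed in all 9 fits that left out 1 array. It passed in 17 of 19 in all, with limma adjusted p from 1.47e-06 to 0.707, and not without the 1 h arrays (0.0705). Set directly against each other, MyD88 KO stood at -1.02 against TRIF KO at 0 h, at -0.45 at 1 h and at 0.52 at 4 h, so their order turned. With 1 array a group, neither this nor the difference in induction between genotypes could be tested. Sorted by level, the unstimulated TRIF KO, 1 h MyD88 KO, unstimulated wild-type and 1 h TRIF KO arrays (8.81, 9.05, 9.31 and 9.50) were each closer to the next than the residual SD of Acod1 in the fit, 0.403. The fit gives every genotype the same time course. Its residual SD therefore also holds differences in response between genotypes, and is not array noise alone.

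**Figure D1:**
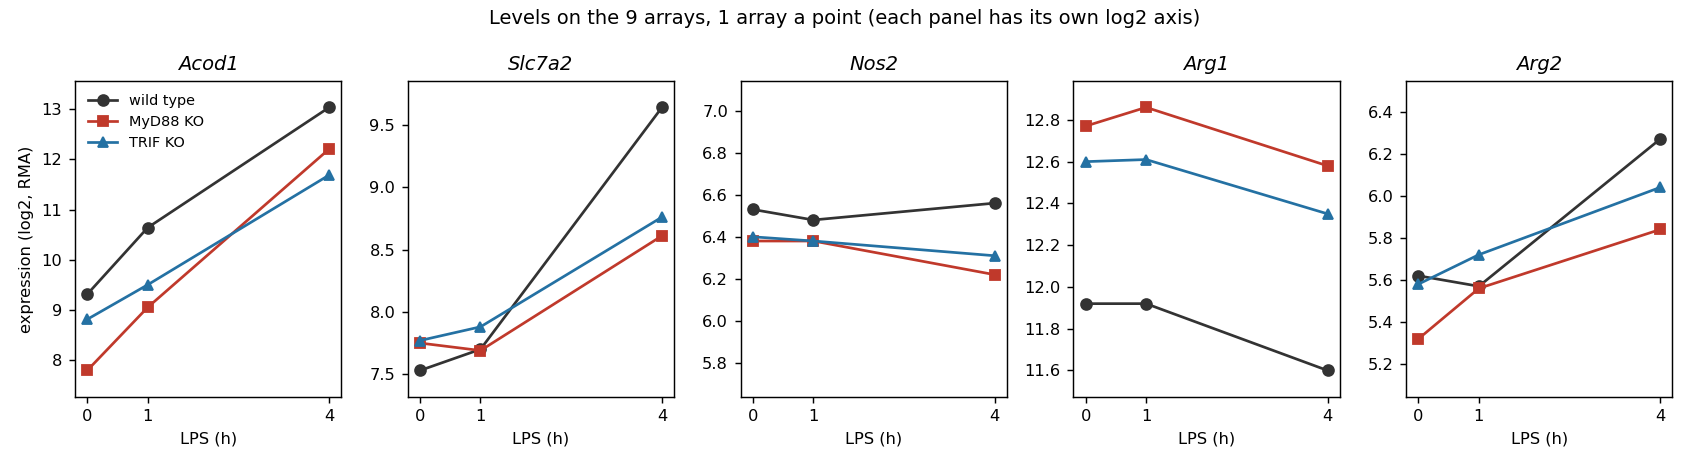
Log2 expression of the 5 genes (1 panel each, own vertical axis) against hours of LPS; each point is 1 array, and lines join the arrays of a genotype. Acod1 climbs in every genotype, Slc7a2 climbs most in wild type (to 9.64), Nos2 stays between 6.22 and 6.56, and Arg1 lies between 11.60 and 11.92 in wild type and between 12.35 and 12.86 in the knockouts.

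Slc7a2, the arginine transporter also called CAT2, responded at 4 h and not measurably at 1 h. In wild type it read 7.53, 7.70 and 9.64 at 0, 1 and 4 h. In MyD88 KO it read 7.75, 7.69 and 8.61, and in TRIF KO 7.77, 7.88 and 8.76. The 6 unstimulated and 1 h arrays lay between 7.53 and 7.88, closer together than the residual SD of 0.373, and the 3 arrays at 4 h stood above them. As for Acod1, that SD also holds differences in response between genotypes and is not array noise alone.

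At 4 h Slc7a2 was 4.29-fold, 1.81-fold and 1.99-fold above the unstimulated level in wild type, MyD88 KO and TRIF KO. Across the genotypes Slc7a2 rose, with a log2 difference of 1.32 ± 0.183 (SE; limma, Benjamini-Hochberg adjusted p = 0.000588, with the same sign in 3 of 3 genotypes), and this call passed in all 20 other fits. At 1 h the estimate was 0.07 ± 0.183 (SE; limma, Benjamini-Hochberg adjusted p = 0.971). The 4 h induction was smaller than in wild type, with a difference of -1.24 (log2) for MyD88 KO and -1.11 for TRIF KO. Each of these was the 23rd lowest value among the 10032 genes for that knockout, with the same wild-type arrays in both comparisons. With 1 array a group, these differences in induction could not be tested.

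The level of Slc7a2 at 4 h stood at -1.02 in MyD88 KO and -0.87 in TRIF KO against wild type, after 0.22 and 0.23 before LPS. Over the 3 times the difference did not pass for either knockout (limma, Benjamini-Hochberg adjusted p = 0.462 and 0.780). The estimates were -0.27 and -0.15, and without the 4 h wild-type array they were 0.10 and 0.21. For TRIF KO the sign also turned without its own 4 h array (0.02).

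The other Slc7a2 probe sets were also highest in wild type at 4 h. One of them, 1422648_at, was close to the representative probe set 1426008_a_at, with 4 h differences of 1.88, 0.85 and 1.14 in wild type, MyD88 KO and TRIF KO. The third, 1450703_at, stayed below log2 = 6 on every array (4.41 to 5.32) and had differences of 0.81, 0.49 and 0.21. It read higher in MyD88 KO than in TRIF KO at 4 h (4.90 against 4.79), while the other two read lower. The transcript forms that each probe set detects were not analysed here.

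**Figure D2:**
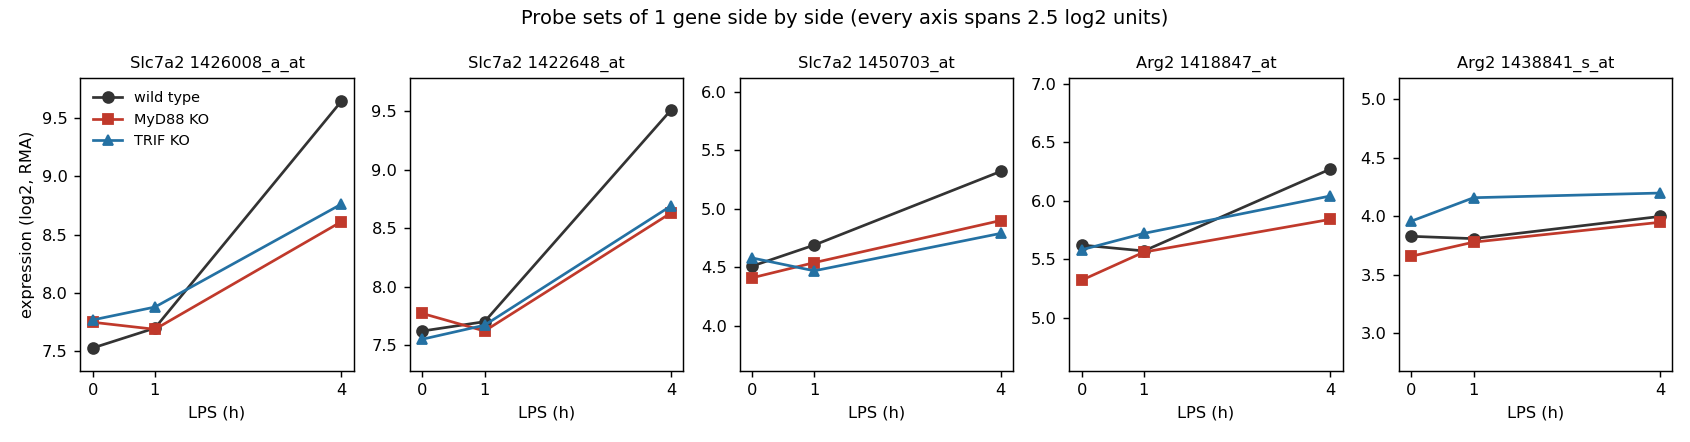
Log2 expression of the 3 Slc7a2 and 2 Arg2 probe sets against hours of LPS, with 1 point an array and vertical axes of equal span. Probe sets 1426008_a_at and 1422648_at reach 9.64 and 9.51 in wild type at 4 h, while 1450703_at and the Arg2 probe set 1438841_s_at stay below 6 on every array.

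Nos2, the inducible nitric oxide synthase, showed no change that passed the test. It read 6.53, 6.48 and 6.56 in wild type at 0, 1 and 4 h. In MyD88 KO it read 6.38, 6.38 and 6.22, and in TRIF KO 6.40, 6.38 and 6.31. The range over the 9 arrays was 0.33, and all values lay near the limit for testing. This single probe set therefore gave no measurable LPS response within 4 h, which does not show that the transcript was unchanged.

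The estimates for Nos2 were -0.02 ± 0.0661 at 1 h and -0.08 ± 0.0661 at 4 h (SE; limma, Benjamini-Hochberg adjusted p = 0.972 and 0.561). The 3 wild-type arrays were all above the 6 knockout arrays, by small amounts. The differences over the times were -0.20 ± 0.0661 in MyD88 KO and -0.16 ± 0.0661 in TRIF KO (SE; limma, Benjamini-Hochberg adjusted p = 0.106 and 0.328, with the same sign at 3 of 3 times in each). Neither passed in any of 19 other fits.

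Arg1 differed between genotypes before any LPS was given. Wild type read 11.92, 11.92 and 11.60 at 0, 1 and 4 h. MyD88 KO read 12.77, 12.86 and 12.58, and TRIF KO 12.60, 12.61 and 12.35. The highest wild-type array was below the lowest array of either knockout, and at each time MyD88 KO was above TRIF KO.

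Arg1 was 1.80-fold, 1.92-fold and 1.97-fold higher in MyD88 KO than in wild type at 0, 1 and 4 h. In TRIF KO it was 1.61-fold, 1.61-fold and 1.68-fold higher. In unstimulated cells these differences ranked 17 and 18 from the top among the 10032 genes. Over the times Arg1 was higher by 0.92 ± 0.0621 in MyD88 KO (SE; limma, Benjamini-Hochberg adjusted p = 3.54e-06, with the same sign at 3 of 3 times). In TRIF KO it was higher by 0.70 ± 0.0621 (SE; limma, Benjamini-Hochberg adjusted p = 3.68e-05, with the same sign at 3 of 3 times). Both calls passed in all 19 other fits, and the wild-type arrays are shared by these comparisons.

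LPS itself moved Arg1 little. The 4 h differences were -0.32, -0.19 and -0.26 in wild type, MyD88 KO and TRIF KO, and Arg1 fell across the genotypes, at -0.26 ± 0.0621 (SE; limma, Benjamini-Hochberg adjusted p = 0.0175, with the same sign in 3 of 3 genotypes). At 1 h the estimate was 0.04 ± 0.0621 (SE; limma, Benjamini-Hochberg adjusted p = 0.950). The 4 h call was lost without the wild-type array at 0 h or 4 h (limma adjusted p = 0.0657 and 0.0994) and without the TRIF KO array at 0 h or 4 h (0.105 and 0.0761), and limma adjusted p ran from 0.00271 to 0.732 over the 19 other fits. The residual SD of Arg1 was 0.0357, below the median of 0.0854 over all genes. Sorted by level, the 3 arrays at 12.58, 12.60 and 12.61 (MyD88 KO at 4 h, TRIF KO at 0 and 1 h) were each closer to the next than that SD. Differences between single arrays could not be tested.

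Some of the other genes that mark alternatively activated macrophages were higher in the knockouts, and most did not pass. Of 16 alternative activation markers, 15 were tested, and 6 were higher and 0 lower in MyD88 KO by limma with Benjamini-Hochberg adjustment. In TRIF KO 4 were higher and 0 lower. At an unadjusted p under 0.05, limma gave 8 higher and 2 lower in MyD88 KO and 6 higher and 0 lower in TRIF KO. Over all genes, 4.56% were higher in MyD88 KO and 1.18% in TRIF KO. The median difference of the list was 0.23 in MyD88 KO and 0.15 in TRIF KO, against 0.00 and 0.01 over all genes.

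The mannose receptor Mrc1 was higher by 0.70 in MyD88 KO and 0.50 in TRIF KO. For the chitinase-like protein Chil3 these values were 0.45 and 0.32. The chemokine Ccl24 was higher by 0.40 and 0.76, and the lectin Clec10a by 0.58 and 0.46. The secreted protein Retnla and the transcription factor Klf4 passed in MyD88 KO alone, with 0.29 and 0.58. In TRIF KO they stood at 0.23 and 0.15 without passing, and the difference between the knockouts was not tested. Among the 9 that did not pass in MyD88 KO, Egr2 stood at -0.26, Ccl22 at -0.17 and Il4ra at 0.00. After 4 h of LPS, limma called 2 of the 15 higher, Ccl22 (0.34) and Tgm2 (0.26). It called 3 lower, Pparg (-1.0), Klf4 (-0.80) and Clec10a (-0.45). Over all genes, 4.62% were called higher and 7.13% lower at 4 h. In wild type alone Pparg differed by -1.65 at 4 h.

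Some markers of other cells moved with the same groups. Of the neutrophil, T or NK, dendritic, and eosinophil and mast cell markers tested, limma called 0 in either knockout. Of 9 fibroblast and mesothelial markers 6 were tested, and 4 were higher in MyD88 KO and 3 in TRIF KO by limma. The shares of all genes called higher were 4.56% and 1.18%. Col3a1, a fibrillar collagen, was higher by 1.45 and 1.02, Col1a2 by 0.60 and 0.44, and Dcn by 0.57 and 0.69. Col1a1 (0.10 and 0.03) and Upk3b (0.20 and 0.01) passed in neither knockout. The mean log2 level of the 9 lay between 6.09 and 6.10 in wild type, 6.44 and 6.49 in MyD88 KO and 6.29 and 6.46 in TRIF KO, and Lum, Msln and Wt1 were below the limit on all arrays. Of 5 B cell markers tested, 2 were lower in each knockout, Cd79a and Ms4a1. Over all genes, 2.68% were lower in MyD88 KO and 0.419% in TRIF KO. The others did not pass, with Cd79b (-0.44 and -0.53) and Blk (-0.16 and -0.21) lower and Ighm (0.21 and 0.13) higher. The mean log2 level of the 6 B cell markers with a probe set, Pax5 below the limit included, lay between 7.21 and 7.44 in wild type, 7.05 and 7.14 in MyD88 KO and 6.97 and 7.05 in TRIF KO. Among the 10 macrophage markers, Marco, Cd14 and Adgre1 were lower in MyD88 KO (-1.19, -0.47 and -0.28 by limma), and Fcgr1 was higher (0.31). The part of any of these in the Arg1 and Acod1 differences was not tested. In such mixed samples more cells of a type and more RNA per cell cannot be told apart.

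**Figure D3:**
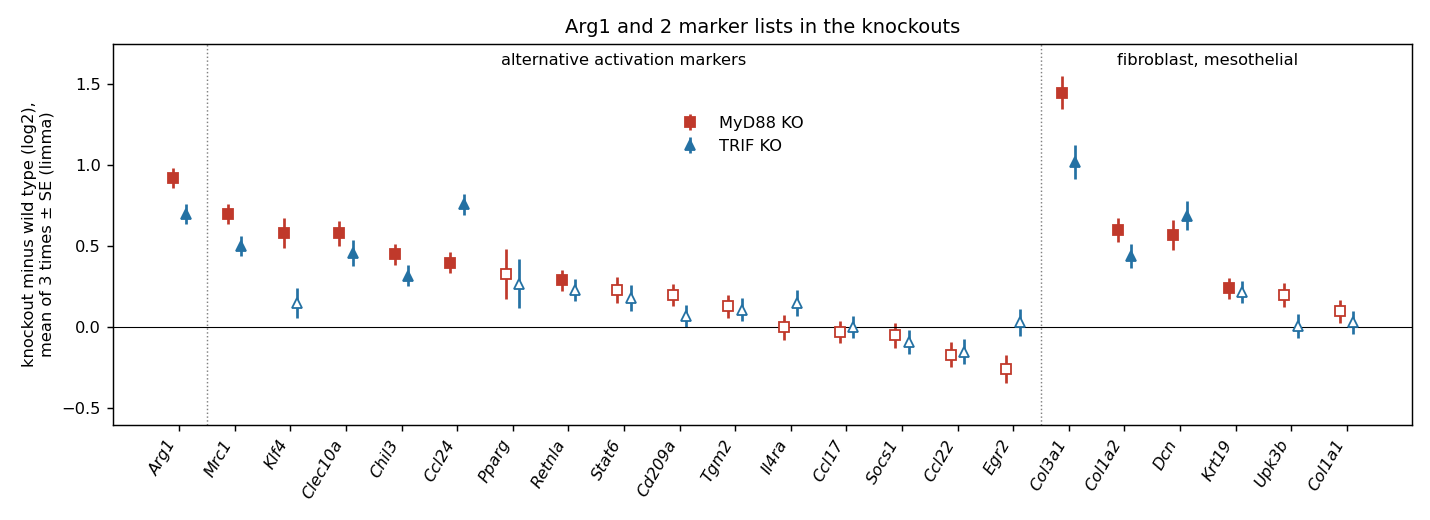
Knockout minus wild type (log2, limma estimate over the 3 times, bars are SE) for Arg1, 15 alternative activation markers and 6 fibroblast or mesothelial markers; squares are MyD88 KO, triangles TRIF KO, and filled symbols passed at an adjusted p of 0.05. Arg1 stands at 0.92 and 0.70, Mrc1 at 0.70 and 0.50, and Col3a1 at 1.45 and 1.02.

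Arg2, the mitochondrial arginase, rose modestly at 4 h from a level near the low end of the arrays. It read 5.62, 5.57 and 6.27 in wild type at 0, 1 and 4 h. In MyD88 KO it read 5.32, 5.56 and 5.84, and in TRIF KO 5.58, 5.72 and 6.04. The 4 h array was the highest of each genotype, and all 3 of them stood above the 6 other arrays.

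The 4 h differences of Arg2 were 1.56-fold, 1.43-fold and 1.37-fold in wild type, MyD88 KO and TRIF KO. Across the genotypes Arg2 rose, with a log2 difference of 0.54 ± 0.0806 (SE; limma, Benjamini-Hochberg adjusted p = 0.000899, with the same sign in 3 of 3 genotypes). With low values raised to log2 = 6 the estimate was 0.10 and did not pass (limma adjusted p = 0.401), as most arrays then read the same value. It passed in the other 17 of 18 fits, from 0.000706. At 1 h the estimate was 0.10 ± 0.0806 (SE; limma, Benjamini-Hochberg adjusted p = 0.902).

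Over the times Arg2 stood at -0.25 ± 0.0806 in MyD88 KO and -0.04 ± 0.0806 in TRIF KO (SE; limma, Benjamini-Hochberg adjusted p = 0.0954 and 0.887). The first passed without the 1 h wild-type array (-0.35, limma adjusted p = 0.0264) and in no other of 18 fits, with adjusted p up to 0.658. The second Arg2 probe set, 1438841_s_at, lay between 3.66 and 4.20 on all arrays, with 4 h differences of 0.17, 0.29 and 0.23 in wild type, MyD88 KO and TRIF KO.

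**Figure D4:**
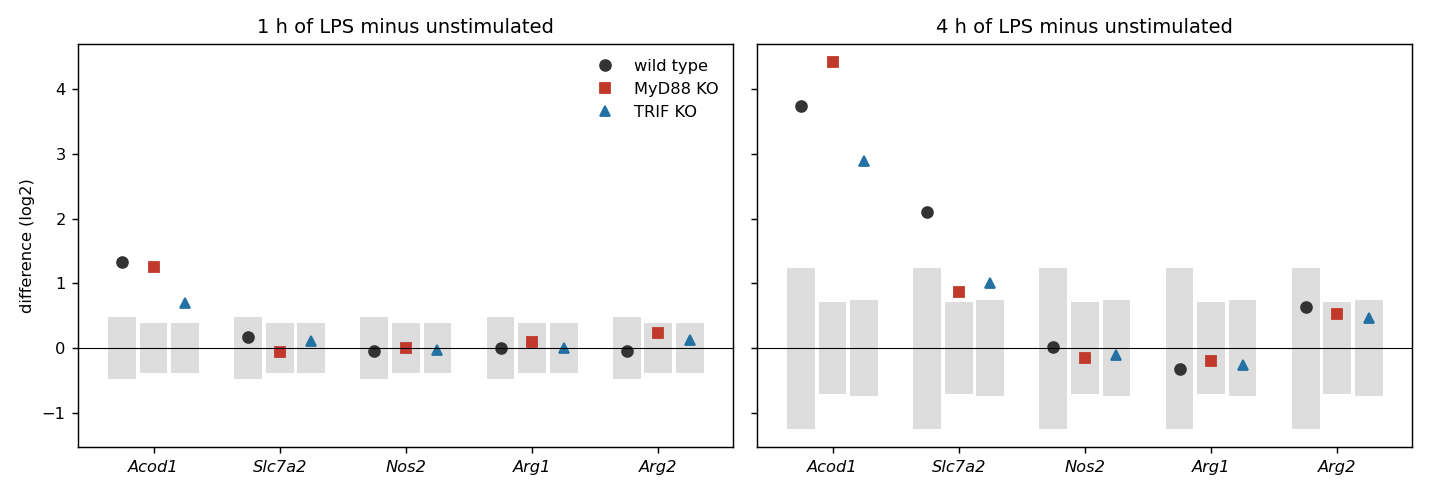
Difference in log2 expression between stimulated and unstimulated arrays of a genotype for the 5 genes at 1 h (left) and 4 h (right); grey bars span the range that holds 99% of the 10032 tested genes for that pair of arrays. Acod1 lies outside the bar in all 6 comparisons and Slc7a2 in the 3 at 4 h (2.10, 0.86 and 1.00), while Nos2, Arg1 and Arg2 lie inside in all 6.

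Among the 5 genes as a set, limma called Acod1 higher at 1 h, when 0.289% of all genes were called higher. At 4 h it called Acod1, Slc7a2 and Arg2 higher and Arg1 lower, with 4.62% and 7.13% of all genes called in those directions. In MyD88 KO it called Arg1 higher and Acod1 lower, with 4.56% and 2.68% of all genes. In TRIF KO it called Arg1 higher and Acod1 lower as well, with 1.18% and 0.419%. Nos2 was called in none of the 4 comparisons.

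By size, 1 of the 5 was at least 2-fold higher in wild type at 1 h (0.239% of all genes) and 2 at 4 h (1.23%). In MyD88 KO 1 was higher at 1 h (0.0698%) and 1 at 4 h (0.429%). In TRIF KO 0 were higher at 1 h (0.14%) and 1 at 4 h (0.409%), with Slc7a2 just under the limit at 1.99-fold. Its probe set 1422648_at was above the limit there, with a log2 difference of 1.14.

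Against wild type, Acod1 was at least 2-fold lower in MyD88 KO at 0 h (0.169% of all genes) and 1 h (0.239%), and in TRIF KO at 1 h (0.0797%) and 4 h (0.349%), while none of the 5 was in TRIF KO at 0 h (0.0698%). Slc7a2 was 2-fold lower in MyD88 KO at 4 h (0.558%) by its representative probe set (-1.02, log2), and not by 1422648_at (-0.88). The largest difference of Arg1 was 1.97-fold, in MyD88 KO at 4 h.

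Other genes of the same pathways, taken by function, had smaller differences at 4 h than Acod1 and Slc7a2. Of 26 TCA cycle and itaconate-linked genes 23 were tested, and 1 rose and 4 fell by limma with Benjamini-Hochberg adjustment. Of all genes tested, 4.62% rose and 7.13% fell at 4 h, so the 1 of 23 that rose is near the background share. The cytosolic isocitrate dehydrogenase Idh1 fell by 0.42, the malate dehydrogenase Mdh1 by 0.36, the isocitrate dehydrogenase subunit Idh3g by 0.29 and the succinate dehydrogenase subunit Sdhb by 0.23. Dld, the lipoamide dehydrogenase of the 2-oxoglutarate dehydrogenase complex, rose by 0.31. The list median was -0.08, against -0.02 over all genes.

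In wild type alone the 4 h differences of Idh1 and Mdh1 were -0.64 and -0.59. They were -0.15 and -0.19 in MyD88 KO and -0.47 and -0.30 in TRIF KO. In the comparison of genotypes, Acly, the ATP citrate lyase, was higher in MyD88 KO by 0.30 (limma, Benjamini-Hochberg adjusted p = 0.0104), and stood at 0.21 in TRIF KO. That is 1 of 23 in MyD88 KO, near the 4.56% of all genes called higher there, and 0 of 23 passed in TRIF KO. At an unadjusted p under 0.05 by limma, 10 were higher and 1 lower in MyD88 KO, and 6 higher and 1 lower in TRIF KO. Of all 10032 genes, 2051 in MyD88 KO and 1303 in TRIF KO had such a p, in either direction.

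For nitric oxide synthesis and its cofactor tetrahydrobiopterin, 8 of 14 genes were tested. Gch1, the enzyme that starts the synthesis of tetrahydrobiopterin, read 9.89, 9.93 and 10.97 in wild type at 0, 1 and 4 h. It read 9.68, 9.70 and 10.46 in MyD88 KO and 9.90, 10.02 and 10.60 in TRIF KO. Gch1 rose by 0.85 ± 0.0841 at 4 h (SE; limma, Benjamini-Hochberg adjusted p = 4.53e-05, with the same sign in 3 of 3 genotypes), while Nos2 did not pass. The later enzymes of the same route, Pts and Spr, fell by 0.21 and 0.23 (limma, Benjamini-Hochberg adjusted p = 0.0420 and 0.0374). That is 1 of 8 higher and 2 of 8 lower at 4 h, where 4.62% and 7.13% of all genes were called. Gch1 was also lower in MyD88 KO over the times, at -0.32 (limma, Benjamini-Hochberg adjusted p = 0.0384), and stood at -0.09 in TRIF KO. It was the 1 of 8 called lower in MyD88 KO, where 2.68% of all genes were.

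Of 12 genes of arginine supply and citrulline recycling 9 were tested, and Slc3a2 alone passed at 4 h. That is 1 of 9 called higher, where 4.62% of all genes were. Slc3a2, the heavy chain of heteromeric amino acid transporters, rose by 0.28 (limma, Benjamini-Hochberg adjusted p = 0.0262). Slc7a1, the constitutive arginine transporter, was below the limit on all arrays (5.47 to 5.92), and Ass1, which returns citrulline to arginine, had no probe set of its own. Of 17 genes linked to ornithine, proline and polyamines 12 were tested, and 0 passed in any of the 4 comparisons by limma, with list medians between -0.03 and 0.00. At an unadjusted p under 0.05 by limma, 0 were higher or lower at 1 h, 1 higher and 2 lower at 4 h, 1 higher in MyD88 KO, and 2 higher and 1 lower in TRIF KO. Of all 10032 genes, 543, 2394, 2051 and 1303 had such a p in the same order of comparisons, in either direction. Odc1, the first enzyme of polyamine synthesis, stood at -0.03 ± 0.0802 at 4 h, and Oat, which leads to proline, at -0.13 ± 0.0776.

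**Figure D5:**
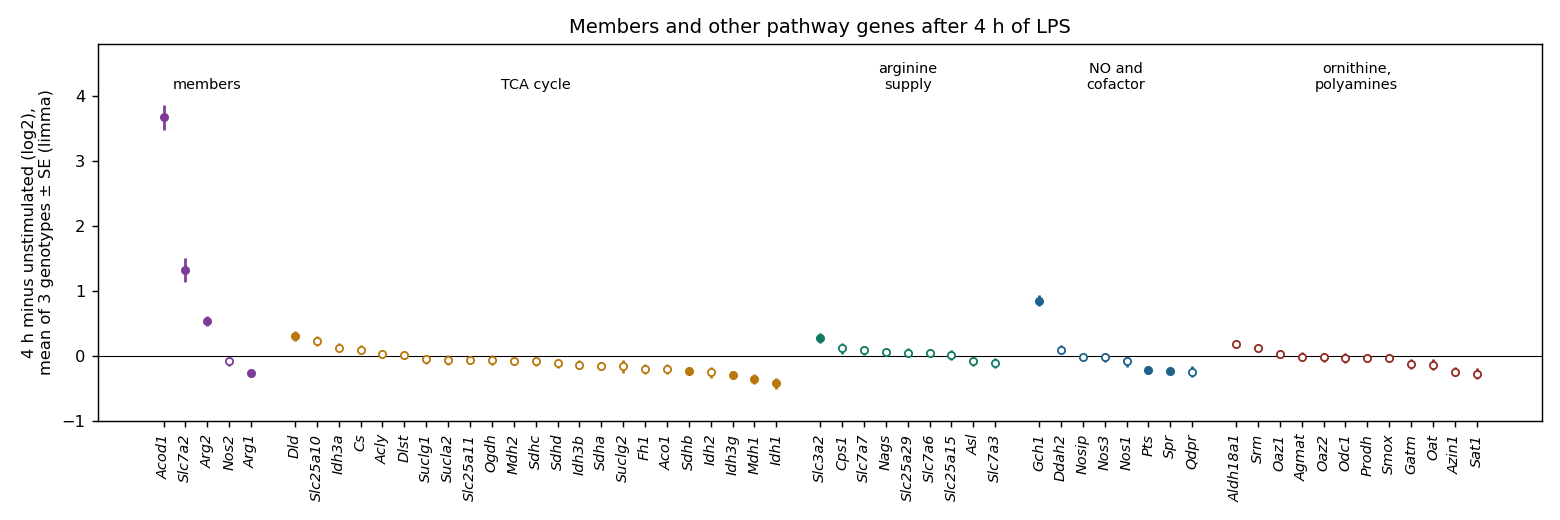
Difference between 4 h of LPS and unstimulated cells (log2, limma estimate over the 3 genotypes, bars are SE) for the 5 genes and the tested genes of 4 pathway lists; filled symbols passed at an adjusted p of 0.05. Acod1 stands at 3.67 and Slc7a2 at 1.32, while the largest value in the other lists is 0.85 for Gch1.

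Genes with the most similar course over the 9 arrays were taken from the 367 genes with a range of at least 1. These correlations share arrays and the strong effect of time or genotype, and they are descriptions without a test. Acod1 was followed most closely by Slc25a37, the mitochondrial iron importer (r = 0.972), Txnrd1, a thioredoxin reductase (0.971), the adhesion molecule Icam1 (0.963) and the phosphatase Ptprj (0.962). Slc7a2 was nearest to Rab12 (0.985), AW112010 (0.984), Ddhd1 (0.983) and the transcription factor Tfec (0.983), and Arg2 to Mtdh (0.989), Spryd7 (0.987), Nfkbib (0.984) and Vasp (0.983).

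For Arg1 the nearest were Pde2a (0.963), F5, the coagulation factor V (0.961), Cap1 (0.948) and Gprc5b (0.943). Cap1 read 8.69 to 9.29 in wild type and 11.29 to 11.46 in the knockouts. For Nos2, whose range was small, the nearest were Ctse (0.847), Lcn2 (0.834), Ncapg2 (0.770) and Htr2b (0.741). Among the 5 genes, Arg2 and Slc7a2 had r = 0.92, Acod1 and Arg2 0.90, Acod1 and Slc7a2 0.87, and Nos2 and Arg1 -0.73, over 9 arrays.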

How the data were processed

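Per the submitters' processing notes, the authors used RMA, and the deposited table holds log2 values, 1 for every probe set on an array. No version of RMA and no genome build was given in the sources used here, nor if the 9 arrays were processed as 1 set. No value was missing, array medians were 7.01 to 7.07, and nothing was rescaled. Of 22690 probe sets, 20393 had 1 gene symbol, 691 several and 1606 none listed. Symbols were updated through the RefSeq table of GRCm38.p6 (20364 identifiers found). A gene took its probe set with the highest mean. Genes reaching log2 = 6 on at least 1 array (10032 of 12394) were fitted with limma 3.58.1 in R 4.3.3 (lmFit and eBayes, genotype plus time, 4 residual and 8.39 prior degrees of freedom). The two-sided p-values were adjusted by Benjamini-Hochberg across the 10032 genes, with calls under 0.05. In this fit, genotypes serve as replicates of a time and times as replicates of a genotype, and a gene whose response differs between genotypes has a larger error. The fit was also run on simulated data with independent noise and a shift that was the same on all arrays of a time or genotype. Such data cannot show how the fit handles responses that differ between genotypes, or effects of a cell preparation.

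The members, lists and tests were chosen with earlier results of these data known. Genes named beyond the members were, of each pathway list, those called at 4 h or among up to 5 with a 2-fold difference on any stimulated array, and for each member the 4 genes with the highest correlation. Other named genes of the marker lists, and Cap1, Ass1, Slc7a1, Odc1, Oat, Acly, Il4ra, Ccl22 and Egr2, were chosen after their values were seen. Promoter sequence came from RefSeq (GRCm38.p6), which matched 1 of the 5 members. Alternatives changed the probe set rule, the filter, low values, centring, the eBayes trend and the block, and left out single arrays, genotypes or times.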

Additional observations from a re-analysis of the deposited data

Results flagged for a closer look

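For 3 genes at 1 time each, the response to LPS had opposite signs in different genotypes, with 1 array a group, and the difference was not tested in any of them. At 4 h Nos2 differed by 0.02 in wild type, by -0.15 in MyD88 KO and by -0.10 in TRIF KO. At 1 h Arg2 differed by -0.05 in wild type, by 0.23 in MyD88 KO and by 0.13 in TRIF KO. At 1 h Slc7a2 differed by 0.17 in wild type, by -0.06 in MyD88 KO and by 0.11 in TRIF KO.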

How the results depend on the processing

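Arrays could not be paired by mouse or cell preparation, because each group had 1 array and the labels give no replicate numbers. The fit of genotype plus time did compare times within genotypes and genotypes within times. The alternative without block fitted 1 of these factors alone. The calls for Acod1, Slc7a2 and Arg2 at 4 h and for Arg1 in both knockouts kept their direction in every alternative run that tested them. All of these passed, except Arg2 with low values raised to log2 = 6 (0.10). With the mean of its probe sets, Arg2 stayed below log2 = 6 and was not tested. Its 4 h difference in wild type was then 0.41, against 0.64 as reported.

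For Acod1 at 1 h the call was lost with the mean of all probe sets of a gene, with every probe set as a feature and with low values raised (1.09 each), after centring on the reference transcripts (1.12), without block (1.09) and without the wild-type arrays (0.97). For Acod1 in TRIF KO it was lost with the mean of probe sets, with low values raised and without block (-1.0 each), after centring (-1.02) and without the 1 h arrays (-0.93). Acod1 has 1 probe set and read at least 7.79, so the probe set and low value settings left its own values unchanged. They acted through its SE, which draws on all genes tested, and through the adjustment. For Acod1 in MyD88 KO it was lost without block (-1.32) and without the 1 h arrays (-1.18). For Arg1 at 4 h it was lost without block (-0.26), without the wild-type arrays (-0.22) and without the TRIF KO arrays (-0.26). The sign turned, with no call on either side, for Nos2 at 1 h after centring (0.00) and, without the 4 h arrays, for Slc7a2 in MyD88 KO (0.11), Slc7a2 in TRIF KO (0.21) and Arg2 in TRIF KO (0.05). Other causes were not tested.

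With single arrays left out, Acod1 ranged from 0.87 to 1.39 at 1 h and from -1.30 to -0.70 in TRIF KO, and Arg1 at 4 h from -0.29 to -0.23. Nos2 at 1 h ranged from -0.06 to 0.01, Slc7a2 from -0.15 to 0.22 at 1 h, from -0.49 to 0.10 in MyD88 KO and from -0.37 to 0.21 in TRIF KO. Arg2 ranged from -0.35 to -0.15 in MyD88 KO and from -0.14 to 0.05 in TRIF KO.

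Counts over all genes moved more. At 1 h 29 genes were called, 7 to 44 with single arrays left out, 10 with low values raised, 1 without block, and 12, 47 and 19 without the wild-type, MyD88 KO and TRIF KO arrays. At 4 h 1178 were called, 555 to 1258 with single arrays left out, 308 without block, and 556 and 558 without the wild-type and TRIF KO arrays. In MyD88 KO 726 were called, 363 to 906 with single arrays left out, 1100 with every probe set as a feature, 95 without block, and 278 and 296 without the 1 h and 4 h arrays. In TRIF KO 160 were called, 68 to 243 with single arrays left out, 248 with every probe set, 96 with low values raised, 66 without block, and 105, 39 and 106 without the 0 h, 1 h and 4 h arrays.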
